A study of Mus musculus with 6 samples.

Results

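The 10 genes described here mark astrocytes, the star-shaped glia of the brain: Gfap, S100b, Sox9, Aldh1l1, Aldoc, Slc1a2, Slc1a3, Glul, Aqp4 and Gja1. They were chosen by name, as all probes whose transcript belongs to one of these genes. The arrays held 15 such probes, and all 10 genes passed the filter on dim probes and were tested, among 22862 tested genes. Transcripts were measured in mouse hypothalamus, the brain region that controls feeding, temperature and hormone release, on 6 single-colour arrays, 2 per genotype. All mice were C57BL/6J males aged 16 weeks, and all 3 groups carry Trsp alleles flanked by loxP sites (TrspFlox/Flox). Trsp-RIPKO mice add RIP-Cre, Trsp-Ins1KO mice add Ins1-Cre, and TrspFF mice have the floxed alleles without a named Cre and are the controls. Trsp encodes the transfer RNA that inserts selenocysteine into selenoproteins. RIP-Cre is driven by an insulin promoter and is known to act in some hypothalamic neurons besides pancreatic beta cells, and Ins1-Cre is driven by the insulin gene Ins1. Neither is a driver aimed at astrocytes, and the tissue was profiled whole.

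Astrocytes clear glutamate from synapses, turn it into glutamine that neurons use again, and pass ions and small molecules through gap junctions. Their endfeet on blood vessels are rich in water channels, and they supply neurons with lactate and with precursors of glutathione, a main antioxidant of the brain. In the hypothalamus they also respond to hormones that report energy stores, and injury or inflammation turns them reactive, with more Gfap as the best-known sign.

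A level here is the log2 processed signal of a probe minus the 75th percentile of its array on the log2 scale, so 0 equals that percentile and a difference of 1 is a doubling or halving of signal. Levels of different probes cannot be compared, because probes differ in how strongly they bind. That percentile lay between 1391 and 2136 signal units, and each array had 68.9% to 72.0% of its probes well above background. No spot of the 10 genes was saturated, and all 15 probes were well above background on all 6 arrays. The TrspFF arrays were scanned on a slide of their own and the 4 knockout arrays on a second slide, so against TrspFF slide and genotype cannot be told apart, whereas the knockout lines were read side by side. Trsp had 0 probes under that name, which leaves its deletion unchecked. Nothing in the labels says that replicate arrays come from different animals, and every p-value and interval rests on their spread alone, which could be technical. One discrepancy touches every result below. In the deposited value table, the columns named Trsp-RIPKO match the scanner arrays named Trsp-Ins1KO with a correlation of 0.999998 across 39311 probes, and those named Trsp-Ins1KO match the Trsp-RIPKO arrays likewise. Group names follow the scanner files, whereas with the names of the table the values of both knockout lines change places and the difference between them changes sign. The array Trsp-Ins1KO 2 stood apart in markers of the choroid plexus, which are described further on.

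None of the 10 astrocyte genes passed the test in any of the 3 comparisons (limma across all 22862 genes, Benjamini-Hochberg adjusted p at 0.05). In Trsp-RIPKO against TrspFF, 4 of the 10 had a positive difference and 6 a negative one, and 1.66% of all genes passed. In Trsp-Ins1KO against TrspFF, 7 were positive and 3 negative, and 1.82% of all genes passed. In Trsp-RIPKO against Trsp-Ins1KO, 4 were positive and 6 negative, and 0.0175% of all genes, 4 in number, passed. These tests used 1 probe per gene, the brightest. On those probes the largest fold among the 10 genes was 1.20 in Trsp-RIPKO against TrspFF (Aldh1l1), 1.37 in Trsp-Ins1KO against TrspFF (Aldoc) and 1.36 in Trsp-RIPKO against Trsp-Ins1KO (Sox9). The 2 TrspFF arrays serve in both of the comparisons with controls. In bulk tissue, fewer astrocytes and less RNA per astrocyte cannot be told apart, and any RNA of these genes from other cells is measured with them.

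**Figure D1:**
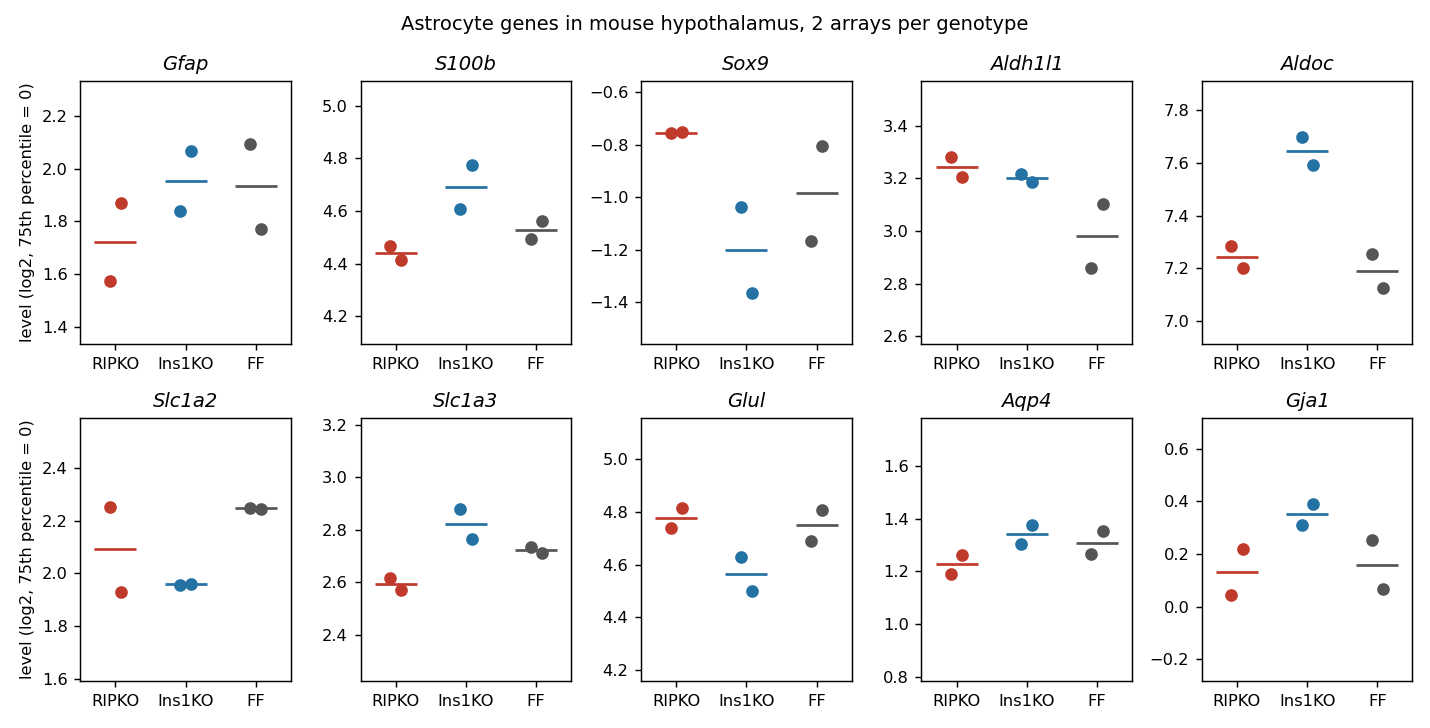
Level of each of the 10 astrocyte genes (log2 signal minus the 75th percentile of the array, vertical axis, spanning 1 log2 unit in each panel) on every array, by group; points are arrays and bars the mean of 2 arrays. Aldoc sat at 7.70 and 7.59 in Trsp-Ins1KO, above the other 4 arrays, whereas the arrays of Gfap overlapped between all groups.

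Gfap encodes the intermediate filament protein of the astrocyte cytoskeleton. Its level was 1.57 and 1.87 in Trsp-RIPKO and 1.84 and 2.07 in Trsp-Ins1KO, against 2.09 and 1.77 in TrspFF. The TrspFF arrays lay 0.32 apart, and both knockout groups overlapped them. The difference was -0.21 ± 0.18 in Trsp-RIPKO minus TrspFF (moderated SE, adjusted p = 0.492) and 0.02 ± 0.18 in Trsp-Ins1KO minus TrspFF (adjusted p = 0.951). S100b encodes a calcium-binding protein that astrocytes also secrete. Its level was 4.47 and 4.41 in Trsp-RIPKO and 4.61 and 4.77 in Trsp-Ins1KO, against 4.49 and 4.56 in TrspFF. Both Trsp-RIPKO arrays lay below and both Trsp-Ins1KO arrays above the TrspFF arrays, with a range of 0.36 over all 6 arrays. The differences from TrspFF were -0.09 ± 0.10 in Trsp-RIPKO (adjusted p = 0.607) and 0.16 ± 0.10 in Trsp-Ins1KO (adjusted p = 0.338), and between the knockout lines -0.25 ± 0.10 (Trsp-RIPKO minus Trsp-Ins1KO, adjusted p = 0.271).

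Sox9 encodes a transcription factor of the astrocyte lineage that stays on in most mature astrocytes. Among the tested probes of the 10 genes it had the widest range over the 6 arrays, 0.61 on the log2 scale. Its level was -0.76 and -0.75 in Trsp-RIPKO and -1.04 and -1.37 in Trsp-Ins1KO, against -1.17 and -0.81 in TrspFF. The Trsp-RIPKO arrays were both the highest and nearly alike, whereas the Trsp-Ins1KO arrays overlapped the TrspFF arrays. The difference between the knockout lines was 0.45 ± 0.17 (Trsp-RIPKO minus Trsp-Ins1KO, 95% interval 0.00 to 0.90, adjusted p = 0.271).

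Aldoc encodes aldolase C, the brain form of a glycolytic enzyme, and Aldh1l1 a folate enzyme whose promoter is widely used to label astrocytes. Among the tested probes Aldoc had the smallest p of the 10 genes in Trsp-Ins1KO against TrspFF and between the knockout lines. Its level was 7.29 and 7.20 in Trsp-RIPKO and 7.70 and 7.59 in Trsp-Ins1KO, against 7.25 and 7.12 in TrspFF. Both Trsp-Ins1KO arrays lay above the other 4, among which Trsp-RIPKO and TrspFF overlapped. The difference was 0.46 ± 0.10 in Trsp-Ins1KO minus TrspFF (1.37-fold, 95% interval 0.21 to 0.71, unadjusted p = 0.0055, adjusted p = 0.0875) and 0.06 ± 0.10 in Trsp-RIPKO minus TrspFF (adjusted p = 0.748). It ranked 1446th by p among all genes in Trsp-Ins1KO against TrspFF. With a variance trend and robust prior in limma its adjusted p there was 0.0467. Between the knockout lines, on 1 slide, the difference was -0.40 ± 0.10 (Trsp-RIPKO minus Trsp-Ins1KO, adjusted p = 0.263). Aldh1l1 had 3.28 and 3.21 in Trsp-RIPKO and 3.22 and 3.19 in Trsp-Ins1KO, against 2.86 and 3.10 in TrspFF. All 4 knockout arrays lay above both TrspFF arrays and within 0.093 of each other, while the TrspFF arrays differed by 0.25. Its differences from TrspFF were 0.26 ± 0.11 in Trsp-RIPKO (adjusted p = 0.239) and 0.22 ± 0.11 in Trsp-Ins1KO (adjusted p = 0.278).

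Slc1a2 and Slc1a3 encode the main glutamate transporters of astrocytes, and Glul encodes glutamine synthetase, which turns the glutamate they import into glutamine. Slc1a2 had 2.25 and 1.93 in Trsp-RIPKO and 1.96 and 1.96 in Trsp-Ins1KO, against 2.25 and 2.24 in TrspFF. One Trsp-RIPKO array was level with the TrspFF arrays and the other with the Trsp-Ins1KO arrays, which both lay below TrspFF. The difference was -0.16 ± 0.13 in Trsp-RIPKO minus TrspFF (adjusted p = 0.486) and -0.29 ± 0.13 in Trsp-Ins1KO minus TrspFF (95% interval -0.62 to 0.04, adjusted p = 0.233). Slc1a3 had 2.62 and 2.57 in Trsp-RIPKO and 2.88 and 2.77 in Trsp-Ins1KO, against 2.74 and 2.71 in TrspFF. As for S100b, the Trsp-RIPKO arrays were the lowest and the Trsp-Ins1KO arrays the highest. The difference between the knockout lines was -0.23 ± 0.09 (Trsp-RIPKO minus Trsp-Ins1KO, unadjusted p = 0.0453, adjusted p = 0.268). Glul had 4.74 and 4.82 in Trsp-RIPKO and 4.63 and 4.50 in Trsp-Ins1KO, against 4.69 and 4.81 in TrspFF. Trsp-RIPKO overlapped TrspFF and both Trsp-Ins1KO arrays lay below. The differences from TrspFF were 0.03 ± 0.10 in Trsp-RIPKO (adjusted p = 0.869) and -0.19 ± 0.10 in Trsp-Ins1KO (adjusted p = 0.289).

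The stretches of 250 bases before the gene starts of Aldoc, Glul and Gfap are printed from RefSeq, because Aldoc and Glul lay on opposite sides of TrspFF in Trsp-Ins1KO and Gfap lay on neither. Coordinates are those of build GRCm38.p6: chr11:78322823-78323072 on the plus strand for Aldoc, chr1:153899679-153899928 on the plus strand for Glul and chr11:102897201-102897450 on the minus strand for Gfap. Capitals mark the half-site of nuclear factor I, TTGGC, in either strand; factors of this family act in the making of astrocytes.
Aldoc: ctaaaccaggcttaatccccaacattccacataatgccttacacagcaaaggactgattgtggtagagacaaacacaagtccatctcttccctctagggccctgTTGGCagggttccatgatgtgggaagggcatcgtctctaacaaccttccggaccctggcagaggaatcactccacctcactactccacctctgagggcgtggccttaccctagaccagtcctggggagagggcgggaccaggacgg
Glul: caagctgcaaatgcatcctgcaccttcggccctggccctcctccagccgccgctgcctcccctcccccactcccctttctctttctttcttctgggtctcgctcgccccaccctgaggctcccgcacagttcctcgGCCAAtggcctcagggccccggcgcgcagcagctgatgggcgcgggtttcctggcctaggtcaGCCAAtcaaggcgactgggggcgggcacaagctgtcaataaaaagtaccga
Gfap: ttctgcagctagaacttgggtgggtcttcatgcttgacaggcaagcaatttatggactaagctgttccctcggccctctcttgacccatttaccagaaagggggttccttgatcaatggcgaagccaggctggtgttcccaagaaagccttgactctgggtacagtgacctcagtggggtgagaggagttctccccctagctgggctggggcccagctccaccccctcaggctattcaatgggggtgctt
The Aldoc window holds 1 such half-site, the Glul window 2 and the Gfap window 0. Promoter windows were found for 8 of the 10 genes, and 4 of these 8 hold the half-site (Aldoc, Slc1a2, S100b and Glul), next to 41.5% of 32851 promoters of the same length. Slc1a2 holds 1 and S100b 3, and in Trsp-Ins1KO they lay below and above both TrspFF arrays. The windows of Slc1a3, Gja1 and Aldh1l1 hold 0, and these genes lay above both TrspFF arrays in Trsp-Ins1KO. A link between half-sites and levels was not tested. The core of the antioxidant response element, TGACNNNGC in either strand, was in 0 of 8 windows and in 10.2% of all promoters. The STAT motif TTCNNNGAA was in 1 of 8 windows (Slc1a3) and in 7.02% of all promoters. The SOX motif AACAAT was in 0 of 8 windows and in 9.42% of all promoters. A match is a description of letters and not a binding site, and its absence says only that the letters are not in these windows.

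Aqp4 encodes the water channel of astrocyte endfeet, and Gja1 encodes the main gap junction connexin of astrocytes. Aqp4 had 1.19 and 1.26 in Trsp-RIPKO and 1.30 and 1.38 in Trsp-Ins1KO, against 1.27 and 1.35 in TrspFF. The range of this probe over all arrays, 0.19, was the narrowest among the tested probes, and a second Aqp4 probe described further on had a range of 0.52. The differences from TrspFF were -0.08 ± 0.09 in Trsp-RIPKO (adjusted p = 0.582) and 0.03 ± 0.09 in Trsp-Ins1KO (adjusted p = 0.843). Gja1 had 0.04 and 0.22 in Trsp-RIPKO and 0.31 and 0.39 in Trsp-Ins1KO, against 0.25 and 0.07 in TrspFF. Both Trsp-Ins1KO arrays lay above the other 4, and Trsp-RIPKO overlapped TrspFF. The differences from TrspFF were -0.03 ± 0.11 in Trsp-RIPKO (adjusted p = 0.894) and 0.19 ± 0.11 in Trsp-Ins1KO (adjusted p = 0.340).

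**Figure D2:**
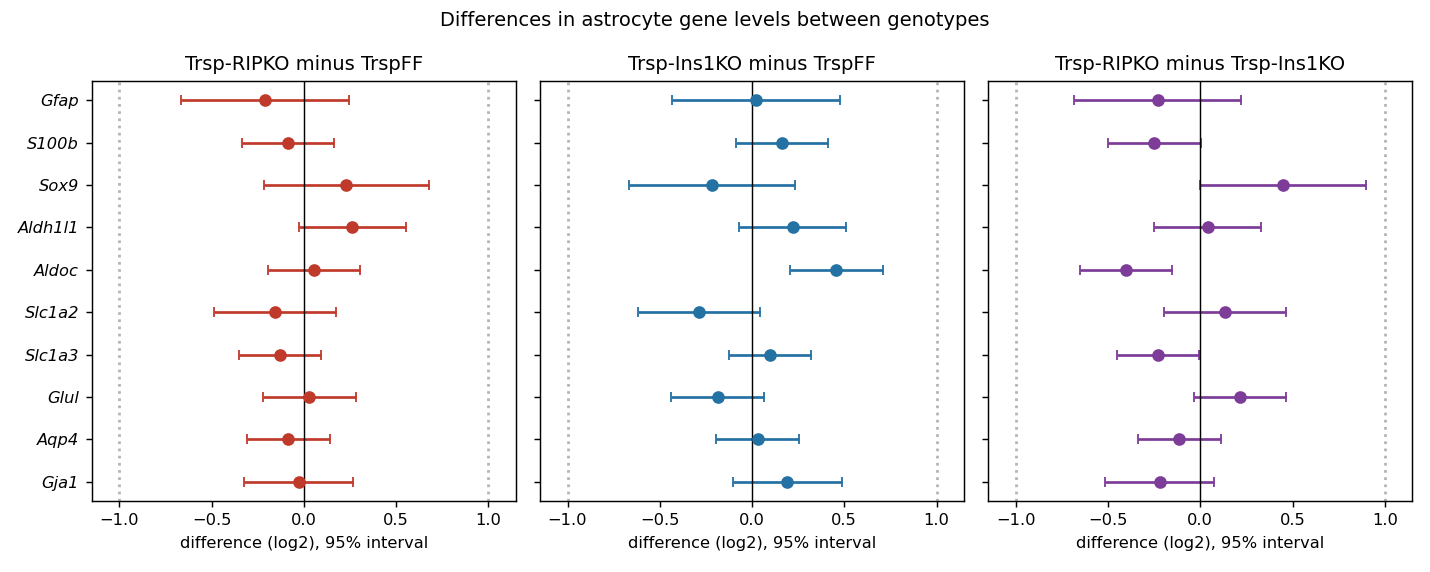
Difference in log2 level (horizontal axis) of each astrocyte gene in the 3 comparisons, with points for the fitted difference and bars for its 95% interval from limma. The intervals reach from -0.67 to 0.68 in Trsp-RIPKO minus TrspFF, from -0.66 to 0.71 in Trsp-Ins1KO minus TrspFF and from -0.69 to 0.90 in Trsp-RIPKO minus Trsp-Ins1KO.

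Read as a list, the differences of the 10 genes from TrspFF were no larger in median than those of all genes. The 10 genes were well above background on every array, whereas all genes include some that were dim on part of the arrays. Genes matched in brightness were not compared. The median size of the difference, sign left aside, was 0.11 in Trsp-RIPKO against TrspFF, where it was 0.21 over all genes. It was 0.19 in Trsp-Ins1KO against TrspFF, where it was 0.22 over all genes, and 0.22 in Trsp-RIPKO against Trsp-Ins1KO, where it was 0.18 over all genes. The median signed difference of the 10 genes was -0.06 in Trsp-RIPKO minus TrspFF, next to -0.01 over all genes. In Trsp-Ins1KO minus TrspFF it was 0.06, next to 0.02 over all genes, and in Trsp-RIPKO minus Trsp-Ins1KO it was -0.17, next to -0.05 over all genes. At an unadjusted p under 0.05 on the tested probes, 0 of the 10 genes passed in Trsp-RIPKO against TrspFF, where 24.0% of all genes did. In Trsp-Ins1KO against TrspFF 1 passed (Aldoc), where 26.0% of all genes did, and in Trsp-RIPKO against Trsp-Ins1KO 2 passed (Aldoc and Slc1a3), where 18.4% did. Both groups were free of overlap for 5 of the 10 genes in Trsp-RIPKO against TrspFF (58.3% of all genes), for 7 in Trsp-Ins1KO against TrspFF (58.2%) and for 7 in Trsp-RIPKO against Trsp-Ins1KO (58.6%), shares near those of all genes. On the tested probes the 95% intervals leave room for changes of up to 1.60-fold in Trsp-RIPKO and 1.63-fold in Trsp-Ins1KO against TrspFF, and of up to 1.86-fold between the knockout lines. Over all 15 probes they reach 1.88-fold in Trsp-RIPKO and 1.90-fold in Trsp-Ins1KO against TrspFF, both on a second Gfap probe. The intervals make no allowance for differences between slides or between probes, so they are not bounds on an effect of genotype.

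Gfap, Aqp4 and Slc1a2 were each read by more than 1 probe, and the probes of a gene did not always give the same difference. The second Aqp4 probe, on the same transcript as the tested one, had 0.83 and 0.79 in Trsp-RIPKO and 0.96 and 0.92 in Trsp-Ins1KO, against 1.31 and 1.28 in TrspFF. All 4 knockout arrays lay below both TrspFF arrays on that probe, which was not so on the tested probe. Its differences from TrspFF were -0.49 ± 0.08 in Trsp-RIPKO (p adjusted over all probes 0.0633) and -0.36 ± 0.08 in Trsp-Ins1KO (0.0924). The unadjusted p from limma on that probe was 0.0017 in Trsp-RIPKO and 0.0066 in Trsp-Ins1KO. A Gfap probe on a different transcript (NM_010277, where the tested probe is on NM_001131020) had 0.57 and 0.79 in Trsp-RIPKO and 0.52 and 0.88 in Trsp-Ins1KO, against 0.55 and 0.09 in TrspFF. The TrspFF arrays were 0.46 apart on it, and its differences were 0.36 ± 0.21 in Trsp-RIPKO and 0.38 ± 0.21 in Trsp-Ins1KO, where the tested probe had -0.21 and 0.02. The third Gfap probe, on the transcript of the tested one, had differences from TrspFF of -0.09 in Trsp-RIPKO and -0.01 in Trsp-Ins1KO. For Slc1a2, the probes on NM_001077514 had differences of 0.17 and -0.23 in Trsp-RIPKO minus TrspFF, and of 0.06 and -0.39 in Trsp-Ins1KO minus TrspFF. Which transcripts each probe can bind was not tested.

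**Figure D3:**
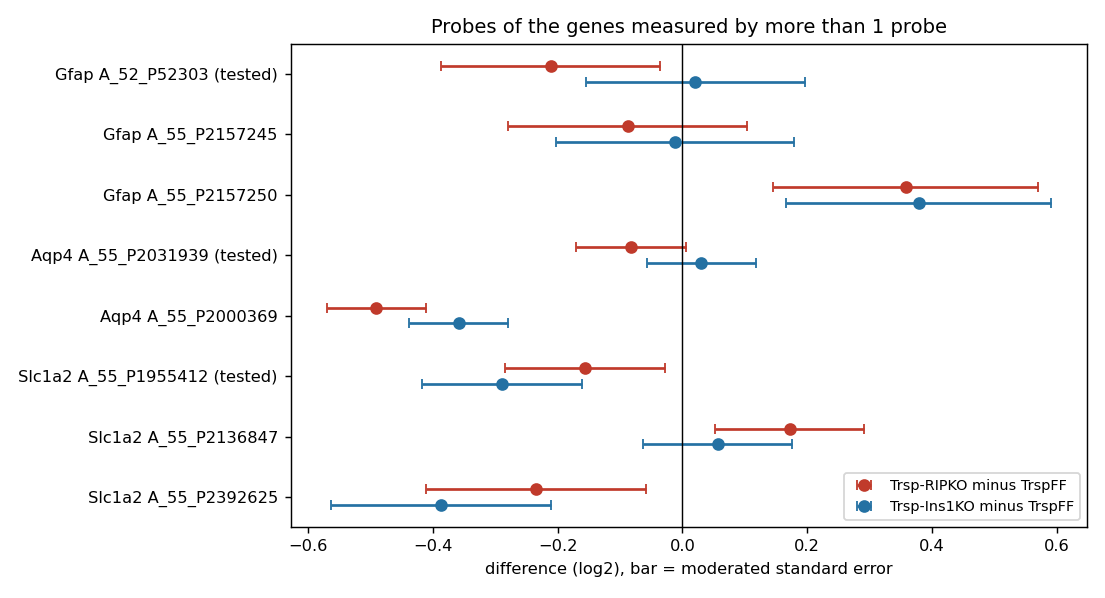
Difference in log2 level from TrspFF (horizontal axis) of every probe of Gfap, Aqp4 and Slc1a2 in Trsp-RIPKO and in Trsp-Ins1KO, with points for the fitted difference and bars for its moderated standard error. The second Aqp4 probe lies at -0.49 and -0.36, away from the tested one at -0.08 and 0.03, and the Gfap probe on NM_010277 lies at 0.36 and 0.38.

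A further 32 genes known from astrocytes were all tested, and none passed in any comparison with limma. In Trsp-RIPKO against TrspFF 14 were positive and 18 negative, with 6 at an unadjusted p under 0.05 (24.0% of all genes) and a median of -0.05. In Trsp-Ins1KO against TrspFF 25 were positive and 7 negative, with 8 at an unadjusted p under 0.05 (26.0% of all genes) and a median of 0.12. In Trsp-RIPKO against Trsp-Ins1KO 8 were positive and 24 negative, with a median of -0.16. Here 12 of 32 had an unadjusted p under 0.05, a larger share than the 18.4% of all genes. Of those 12, 11 were negative and 1 positive. Hepacam, a cell adhesion protein of astrocytes, came closest to passing. It had -1.56 and -1.62 in Trsp-RIPKO and -1.98 and -1.88 in Trsp-Ins1KO, against -1.30 and -1.35 in TrspFF. All 4 knockout arrays lay below both TrspFF arrays, by -0.26 ± 0.09 in Trsp-RIPKO (adjusted p = 0.169) and -0.61 ± 0.09 in Trsp-Ins1KO (adjusted p = 0.0529). Requiring probes to be well above background on all 6 arrays gave an adjusted p of 0.0437 for Hepacam in Trsp-Ins1KO, and the robust trended fit gave 0.0367. The latter fit called 1241 genes in that comparison, where the main fit called 416. No other alternative that kept 2 arrays per group took Hepacam past the threshold.

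Cbs, which makes cystathionine on the way to cysteine, had 2.01 and 2.00 in Trsp-RIPKO and 2.12 and 1.96 in Trsp-Ins1KO, against 1.55 and 1.59 in TrspFF. The knockout arrays were all above TrspFF, by 0.44 ± 0.09 in Trsp-RIPKO (adjusted p = 0.0907) and 0.47 ± 0.09 in Trsp-Ins1KO (adjusted p = 0.0777). With the robust trended fit the adjusted p of Cbs was 0.0462 in Trsp-RIPKO and 0.0367 in Trsp-Ins1KO. That fit called 785 genes in Trsp-RIPKO against TrspFF, where the main fit called 379. Slc4a4, a bicarbonate transporter, had 1.31 and 1.03 in Trsp-RIPKO, against 2.27 and 1.86 in TrspFF (difference -0.89 ± 0.19, adjusted p = 0.0950). Slc39a12, a zinc transporter, had 0.68 and 0.78 in Trsp-RIPKO, against 1.06 and 1.01 in TrspFF (difference -0.30 ± 0.09, adjusted p = 0.144). The GABA transporter gene Slc6a11 had 1.62 and 1.70 in Trsp-RIPKO and 2.10 and 2.01 in Trsp-Ins1KO, against 1.72 and 1.58 in TrspFF. Only its Trsp-Ins1KO arrays stood apart from TrspFF (0.41 ± 0.10, adjusted p = 0.0999), and the knockout lines differed by -0.40 ± 0.10 (Trsp-RIPKO minus Trsp-Ins1KO, adjusted p = 0.263). Ntsr2, a neurotensin receptor, had 4.61 and 4.72 in Trsp-Ins1KO, against 4.38 and 4.21 in TrspFF (difference 0.37 ± 0.10, adjusted p = 0.118). In Trsp-RIPKO it had 4.46 and 4.50, also above TrspFF (difference 0.18 ± 0.10, adjusted p = 0.329). Kcnj10, the potassium channel of astrocytes, had 4.67 and 4.59 in Trsp-RIPKO, against 5.15 and 5.20 in Trsp-Ins1KO (difference -0.55 ± 0.14, adjusted p = 0.263). The TrspFF arrays had 4.89 and 4.53. Cldn10, a claudin, had 1.32 and 1.43 in Trsp-RIPKO, against 1.97 and 2.07 in Trsp-Ins1KO (difference -0.65 ± 0.17, adjusted p = 0.263). Its TrspFF arrays, at 1.79 and 1.34, lay well apart.

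**Figure D4:**
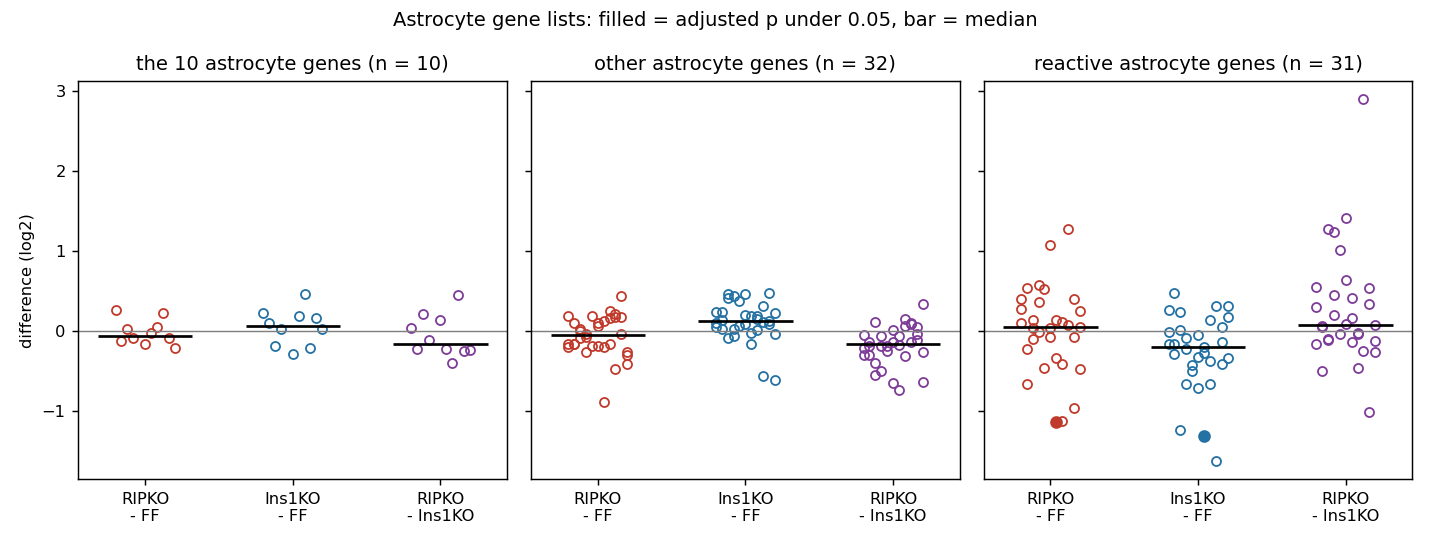
Differences in log2 level of every tested gene (points) of the 10 astrocyte genes, the 32 other astrocyte genes and the 31 tested reactive astrocyte genes in the 3 comparisons, with the median of each list. The medians of the other astrocyte genes lie at -0.05, 0.12 and -0.16, and Iigp1 is the single gene that passed the test, in both comparisons with TrspFF.

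Of 37 genes known to be raised in reactive astrocytes, 31 were tested and 6 were too dim (Steap4, Ggta1, Tgm1, Ptx3, Cd109 and Slc10a6). One of them passed: Iigp1, an interferon-induced GTPase, was lower on its tested probe in both knockout lines. Over all genes 1.66% passed in Trsp-RIPKO and 1.82% in Trsp-Ins1KO. The levels below are those of that probe. It had -2.24 and -2.44 in Trsp-RIPKO and -2.37 and -2.65 in Trsp-Ins1KO, against -1.32 and -1.08 in TrspFF. The differences were -1.14 ± 0.15 in Trsp-RIPKO (adjusted p = 0.0495) and -1.31 ± 0.15 in Trsp-Ins1KO (adjusted p = 0.0366). Keeping all dim probes ended both calls (adjusted p = 0.115 in Trsp-RIPKO and 0.0912 in Trsp-Ins1KO), as did fitting the compared groups alone (0.0940 and 0.103). The latter fit called 0 genes in either comparison, so that loss is not particular to Iigp1. Leaving out an array of the third group is the same fit. Neither call held without any 1 of the 6 arrays, with differences from -1.26 to -1.02 in Trsp-RIPKO and from -1.45 to -1.17 in Trsp-Ins1KO. The mean of the Iigp1 probes gave 0.19 in Trsp-RIPKO minus TrspFF and -0.95 in Trsp-Ins1KO minus TrspFF, neither of which passed. With a positive mean, the probes of Iigp1 cannot all have been lower in Trsp-RIPKO than in TrspFF. Among the reactive genes 18 were positive and 13 negative in Trsp-RIPKO against TrspFF (median 0.05), and 9 were positive and 22 negative in Trsp-Ins1KO against TrspFF (median -0.20). In Trsp-RIPKO against Trsp-Ins1KO 18 were positive and 13 negative (median 0.08). At an unadjusted p under 0.05 there were 6 of 31 in Trsp-RIPKO against TrspFF (24.0% of all genes) and 4 of 31 in Trsp-Ins1KO against TrspFF (26.0%). Between the knockout lines there were 9 of 31 (18.4% of all genes), all 9 positive, with 0 past the adjusted threshold.

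Fkbp5, a glucocorticoid-induced chaperone, had 0.10 and 0.06 in Trsp-RIPKO and 0.07 and 0.16 in Trsp-Ins1KO, against 0.63 and 0.45 in TrspFF. All knockout arrays were below TrspFF, by -0.46 ± 0.10 in Trsp-RIPKO (adjusted p = 0.0950) and -0.42 ± 0.10 in Trsp-Ins1KO (adjusted p = 0.0979). Nes, the filament protein nestin, had -1.10 and -1.07 in Trsp-RIPKO, against -1.65 and -1.60 in Trsp-Ins1KO and -1.56 and -1.41 in TrspFF. Its Trsp-RIPKO arrays were above all others, by 0.40 ± 0.09 against TrspFF (adjusted p = 0.103) and 0.54 ± 0.09 against Trsp-Ins1KO (adjusted p = 0.263). The chemokine gene Cxcl10 had -3.74 and -3.13 in Trsp-RIPKO, against -4.90 and -4.80 in Trsp-Ins1KO and -4.71 and -4.33 in TrspFF. It too was highest in both Trsp-RIPKO arrays (1.08 ± 0.25 over TrspFF, adjusted p = 0.102, and 1.41 ± 0.25 over Trsp-Ins1KO, adjusted p = 0.263). Osmr, a cytokine receptor, had -2.36 and -2.53 in Trsp-RIPKO and -3.22 and -2.95 in Trsp-Ins1KO, against -2.34 and -2.41 in TrspFF. Its Trsp-Ins1KO arrays were the lowest (-0.71 ± 0.13 against TrspFF, adjusted p = 0.0718, or 0.0499 with the robust trended fit). H2-T23, a class I histocompatibility gene, had 0.92 and 1.17 in Trsp-RIPKO, against -0.21 and -0.16 in Trsp-Ins1KO (difference 1.23 ± 0.31, adjusted p = 0.263). The TrspFF arrays lay far apart, at 0.02 and 0.92, the higher of them level with the lower Trsp-RIPKO array. Fitting both knockout groups alone leaves out the spread of those TrspFF arrays. It gave H2-T23 a smaller SE, 0.12, and an adjusted p of 0.0451, in a fit that called 318 genes where the main fit called 4. Psmb8, an immunoproteasome subunit, had -1.82 and -1.52 in Trsp-RIPKO and -1.54 and -1.91 in Trsp-Ins1KO, against -2.11 and -2.30 in TrspFF. Its knockout arrays were all above TrspFF, by 0.54 ± 0.18 in Trsp-RIPKO (adjusted p = 0.174) and 0.48 ± 0.18 in Trsp-Ins1KO (adjusted p = 0.185).

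Markers of other cells were read on the same arrays as mean levels over each list, and their part in the differences above was not tested. The 10 astrocyte genes averaged 2.67 and 2.67 in Trsp-RIPKO and 2.74 and 2.73 in Trsp-Ins1KO, against 2.67 and 2.69 in TrspFF. Their mean was nearly level over the 6 arrays, which does not show that each gene was. In Trsp-Ins1KO minus TrspFF 7 of them were positive and 3 negative, from -0.29 to 0.46, and these offset each other in the mean. The 32 other astrocyte genes averaged 2.65 and 2.68 in Trsp-Ins1KO, above the other 4 arrays. The highest of those 4 was a TrspFF array at 2.60, and Trsp-RIPKO had 2.48 and 2.49. Neuron markers (10 of 10 tested) averaged 3.96 and 3.88 in Trsp-RIPKO and 3.88 and 3.96 in Trsp-Ins1KO, against 3.88 and 3.93 in TrspFF. The mean of the neuron list was as level as that of the 10 genes, unlike several others. Endothelial markers (10 of 10 tested) averaged -0.05 and 0.02 in Trsp-RIPKO and -0.92 and -0.69 in Trsp-Ins1KO, against -0.53 and -0.16 in TrspFF. Oligodendrocyte markers (10 of 10 tested) averaged 2.93 and 2.86 in Trsp-RIPKO and 2.47 and 2.68 in Trsp-Ins1KO, against 2.78 and 3.14 in TrspFF. Both lists were lowest in Trsp-Ins1KO, the group in which Aldoc, Gja1, Slc1a3 and S100b had both arrays above the other 4 and Glul had both below. Hypothalamus markers (11 of 12 tested) averaged 1.23 and 1.09 in Trsp-RIPKO and 1.84 and 1.90 in Trsp-Ins1KO, against 1.45 and 1.05 in TrspFF. They were on average above the 75th percentile on all arrays and highest in Trsp-Ins1KO. Ependymal markers (9 of 9 tested) averaged -1.53 and -0.66 in Trsp-RIPKO and -0.07 and -0.29 in Trsp-Ins1KO, against -0.24 and -1.01 in TrspFF.

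Choroid plexus markers (12 of 12 tested) averaged -0.03 and 0.15 in Trsp-RIPKO and -0.26 and -2.71 in Trsp-Ins1KO, against 0.57 and 0.05 in TrspFF. The low array was Trsp-Ins1KO 2, on which Ttr, the transthyretin gene of that tissue, had -0.95 where the other arrays had between 5.39 and 6.31. Without that array 0 of the 10 astrocyte genes passed in any comparison, and Aldoc had a difference of 0.51 in Trsp-Ins1KO minus TrspFF (adjusted p = 0.236). Microglia markers (10 of 10 tested) averaged 1.41 and 1.40 in Trsp-RIPKO and 1.50 and 1.59 in Trsp-Ins1KO, against 1.47 and 1.36 in TrspFF. Oligodendrocyte precursor markers (6 of 6 tested) averaged 0.92 and 0.89 in Trsp-RIPKO and 0.77 and 0.83 in Trsp-Ins1KO, against 0.77 and 0.93 in TrspFF. Tanycyte markers (7 of 9 tested) averaged -2.48 and -2.23 in Trsp-RIPKO and -2.49 and -2.81 in Trsp-Ins1KO, against -2.39 and -2.49 in TrspFF. Of the 85 tested genes on the lists for other cells, 0 passed in any of the 3 comparisons with limma. At an unadjusted p under 0.05 there were 13 in Trsp-RIPKO against TrspFF (24.0% of all genes), 27 in Trsp-Ins1KO against TrspFF (26.0%) and 26 in Trsp-RIPKO against Trsp-Ins1KO (18.4%).

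**Figure D5:**
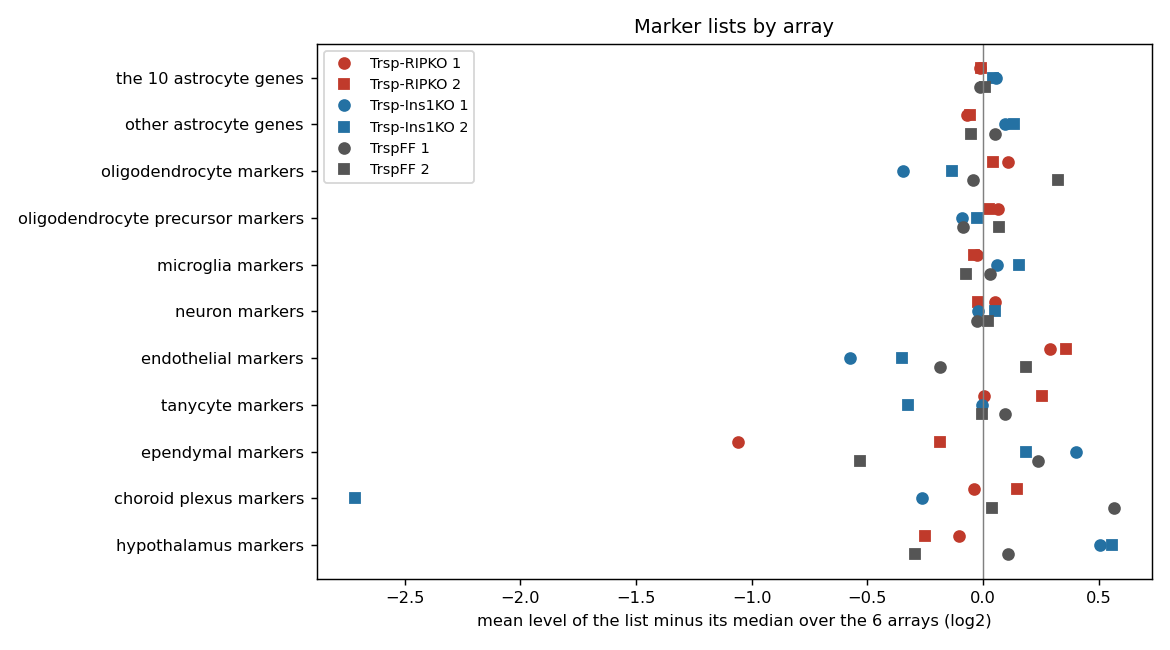
Mean level of each marker list on each array minus the median of that list over the 6 arrays (log2, horizontal axis), with symbols for arrays. The 10 astrocyte genes and the neuron markers lie close to 0 on all arrays, the endothelial markers are lowest in Trsp-Ins1KO, and the choroid plexus markers of Trsp-Ins1KO 2 lie far below all others.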

How the data were processed

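Per the labels, total RNA was extracted, labelled with Cy3 by a low-input amplification kit and hybridised to 1-colour arrays, and per the submitters' processing notes and file headers scans were read with Agilent Feature Extraction 10.7.3.1 and probes annotated on mouse build mm9. The deposited scanner files give each spot's background-subtracted intensity and quality flags. The deposited value table holds log2 values centred per probe at the median of the 6 arrays. In the sources used here its scaling between arrays is not given, and it served as an alternative, joined to the scanner files by its match in values. It nearly repeats the levels used here (correlation of at least 0.999998 after centring). Its calls against TrspFF, 380 in Trsp-RIPKO and 415 in Trsp-Ins1KO where the main fit had 379 and 416, are therefore no separate check.

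From 43020 spots that are not controls, spots of a probe were averaged without flagged ones, giving 39429 probes, of which 118 had only flagged spots on some array. Levels were log2 of processed signal less the array's 75th percentile. Probes were kept (28064) when some group had both arrays well above background. Symbols came from transcript accessions through a RefSeq gene table of build GRCm38.p6, for 26055 of 39429 probes (66.1%); each gene was tested on its brightest kept probe. limma 3.58.1 in R 4.3.3 (jsonlite 2.0.0 for labels) fitted all 6 arrays with lmFit and eBayes, with 4.87 degrees of freedom, a median SE of 0.127 and Benjamini-Hochberg adjustment over 22862 genes at 0.05. The number of arrays limits the precision. Figures were drawn in Python 3.11.15 with matplotlib 3.10.9.

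The 10 genes and the other gene lists were chosen with earlier results of these data known. Named beside the 10 are, per comparison, the genes of the other astrocyte and reactive astrocyte lists that passed and, up to 4 in all, those with the smallest p; of each list for other cells, the gene with the highest level could be named. The alternatives tried were normexp correction (offset 50), quantile normalization, median scaling, the deposited table, no filter, a filter on all 6 arrays, the mean of probes, each probe alone, eBayes with trend and robust, the compared groups alone, a replicate block and leaving out each array.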

Additional observations from a re-analysis of the deposited data

How the results depend on the processing

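The number of the 10 astrocyte genes past the threshold stayed 0 in all 3 comparisons under every alternative run except eBayes with trend and robust, which called 1 (Aldoc, Trsp-Ins1KO minus TrspFF). Genes called over the whole table moved more. In Trsp-RIPKO minus TrspFF (379) there were 224 with median scaling, 0 without a filter, 785 with trend and robust, 0 with the compared groups alone and 0 to 495 leaving out an array. In Trsp-Ins1KO minus TrspFF (416) there were 25 without a filter, 1241 with trend and robust, 0 with the groups alone and 0 to 511 leaving out an array. In Trsp-RIPKO minus Trsp-Ins1KO (4) there were 1 with normexp, without a filter or with trend and robust, 2 with a filter on all 6 arrays, 318 with the groups alone and 0 to 318 leaving out an array. Normexp called 71 higher and 352 lower in Trsp-RIPKO and 192 higher and 392 lower in Trsp-Ins1KO, against TrspFF, where the main values were 22 and 357, and 55 and 361. Same-numbered arrays did not deviate together (correlations -0.0251, 0.0894 and -0.0219). Whether they were handled as pairs cannot be told from this, since a shared step with little effect would look alike. With the numbers as a replicate block 0 genes were called in each comparison. The median of the 10 genes in Trsp-RIPKO minus TrspFF (-0.056) was -0.019 with normexp, 0.053 with median scaling, -0.0043 with the mean of probes, -0.083 with each probe alone and -0.056 to -0.017 leaving out an array. In Trsp-Ins1KO minus TrspFF (0.065) it was 0.0019 with quantile normalization, 0.15 with median scaling, 0.11 with the mean of probes, 0.031 with each probe alone and 0.037 to 0.11 leaving out an array. In Trsp-RIPKO minus Trsp-Ins1KO (-0.17) it was -0.075 with quantile normalization, -0.12 with the mean of probes, -0.076 with each probe alone and -0.18 to -0.080 leaving out an array. Median scaling moved the median of all genes to 0.09 in Trsp-RIPKO and 0.11 in Trsp-Ins1KO, minus TrspFF. Signs of differences that had not passed turned in Trsp-RIPKO minus TrspFF for Aldoc (-0.19), Slc1a2 (0.0074) and Slc1a3 (0.16) with normexp, for Aqp4 (0.026), Gja1 (0.080) and S100b (0.022) with median scaling, and for Gfap (0.020) and Slc39a12 (0.0098) with the mean of probes, which also turned Iigp1 (0.19). In Trsp-Ins1KO minus TrspFF they turned for Gfap (-0.042) and Aqp4 (-0.033) with normexp, Gfap (-0.016) with quantile normalization and Aqp4 (-0.16) with the mean of probes. Leaving out an array gave ranges across 0 in Trsp-RIPKO minus TrspFF for Aldoc (-0.010 to 0.12), Gja1 (-0.12 to 0.065), Glul (-0.029 to 0.089) and Slc1a2 (-0.32 to 0.0054), in Trsp-Ins1KO minus TrspFF for Aqp4 (-0.013 to 0.074) and Gfap (-0.14 to 0.18), and in Trsp-RIPKO minus Trsp-Ins1KO for Slc1a2 (-0.028 to 0.29). Both calls of Iigp1 were also lost with the replicate block (adjusted p = 0.0926 in Trsp-RIPKO and 0.0991 in Trsp-Ins1KO, minus TrspFF), and that in Trsp-RIPKO with quantile normalization (0.0539), median scaling (0.0604) and each probe alone (0.0502). The causes were not tested. A fit without an array assumes that the lone array left in its group varies like the others.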
